A study of Saccharomyces cerevisiae with 24 samples.

Results

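The genes described here are the 81 rows whose names start with snR in the expression tables of a budding yeast (Saccharomyces cerevisiae) RNA-seq study. They were taken by name out of 7126 rows in each of 2 tables, and the same 81 rows stood in both. The choice was made with earlier results of these data known. The RefSeq annotation of R64 matched all 81. It lists 76 of them as small nucleolar RNA (snoRNA) genes, 47 of the C/D box class and 29 of the H/ACA box class. The name "small nucleolar" does not hold for the other 5 rows, which are RNAs of the spliceosome: snR6 (U6), snR7-L and snR7-S (2 forms of U5), snR14 (U4) and snR19 (U1). U2, whose gene is called LSR1, falls outside the naming rule.

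The study asked how the transcriptional repressors Yhp1 and Yox1, and the sites at which the cyclin-dependent kinase Cdk1 phosphorylates them, affect transcript levels. All cultures were asynchronous and grew in YM-1, a rich medium, with dextrose, and each strain had 3 biological replicates. In the phosphomutant set, wild type was compared with yhp1-13A and yox1-9A, in which Cdk1 sites of the protein are mutated, and with the double mutant, yhp1-13A yox1-9A. The deletion set compared wild type with yhp1Δ, yox1Δ and yhp1Δ yox1Δ. One wild type strain, YOX1-3V5-KanMx YHP1-13MYC-LEU2, served both sets, and its replicates were collected anew alongside each set. By the sample labels every strain was MATa ura3Δ0 leu2Δ0 his3Δ0 (the published strain list has his3Δ1), with met15Δ0 in all strains except yhp1Δ, which carried lys2Δ0. The phosphomutant alleles were yhp1-13A-13MYC-LEU2 and yox1-9A-3V5-KanMx, and the deletions were yhp1Δ::LEU2 and yox1Δ::KanMX, or yox1Δ::NatMX in the double deletion. The double phosphomutant thus carries the same tags and markers as wild type. Each single phosphomutant lacks the tag and marker at the other gene, and the deletion strains carry neither tag, so that in those strains the effect of an allele cannot be told apart from that of tags and markers. In yhp1Δ it also cannot be told apart from that of lys2Δ0 and the lack of met15Δ0.

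SnoRNAs are short nuclear RNAs that work as RNA-protein particles in the nucleolus, where ribosomal RNA is made. C/D box members pair with ribosomal RNA and position the methyltransferase Nop1 to add a methyl group to a ribose. H/ACA box members position the pseudouridine synthase Cbf5, which converts uridine to pseudouridine. A few members, such as U3, U14, snR30 and snR10, are needed for the cleavage of the ribosomal RNA precursor. In yeast most snoRNAs come from their own RNA polymerase II promoters, some are cut from a shared precursor, and some are released from introns of protein-coding genes.

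A few sequences show what defines each class and the members on which the results turn. Each is the RefSeq R64 gene sequence, 5′ to 3′ on the RNA strand. In the first 4, C/D box genes, capitals mark the C box motif TGATGA near the 5′ end and the D box motif CTGA near the 3′ end. In the last 2, H/ACA box genes, capitals mark the ACA that stands 3 bases from the 3′ end.
snR54 (chrXIII:163535-163620, minus strand): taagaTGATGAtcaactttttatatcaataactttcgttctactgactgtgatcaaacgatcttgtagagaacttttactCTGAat
snR78 (chrXIII:297278-297364, plus strand): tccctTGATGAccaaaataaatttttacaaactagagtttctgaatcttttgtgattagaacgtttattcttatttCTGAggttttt
snR62 (chrXV:409765-409864, minus strand): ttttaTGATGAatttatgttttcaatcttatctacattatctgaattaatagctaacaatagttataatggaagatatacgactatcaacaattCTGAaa
snR64 (chrXI:38811-38911, plus strand): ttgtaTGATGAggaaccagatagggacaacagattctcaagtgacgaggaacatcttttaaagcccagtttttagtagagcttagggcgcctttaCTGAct
snR33 (chrIII:142364-142546, minus strand): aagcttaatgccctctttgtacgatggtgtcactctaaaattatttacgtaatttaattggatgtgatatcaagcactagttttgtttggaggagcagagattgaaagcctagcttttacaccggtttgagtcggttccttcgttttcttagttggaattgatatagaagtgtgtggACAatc
snR49 (chrXIV:716120-716284, plus strand): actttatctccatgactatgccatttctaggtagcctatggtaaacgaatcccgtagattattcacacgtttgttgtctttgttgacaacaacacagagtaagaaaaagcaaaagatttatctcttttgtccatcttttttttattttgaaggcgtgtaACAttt

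snR54 and snR78 varied most between replicates of the phosphomutant set, snR62 and snR64 were called between deletion strains, and snR33 and snR49 are the 2 highest H/ACA members outside introns. TGATGA within the first 30 bases of the RNA strand was found in 37 of 47 C/D genes, in 1 of 29 H/ACA genes and in 1.43% of 6376 other R64 genes. CTGA within the last 30 bases was found in 45 of 47 C/D genes, 2 of 29 H/ACA genes and 12.8% of the other genes. ACA at 3 bases from the annotated 3′ end was found in 14 of 29 H/ACA genes, 3 of 47 C/D genes and 1.1% of the others. C/D genes were short, with a median of 98 bases (78 to 333). H/ACA genes had a median of 204 bases (161 to 1004). The median GC content was 34.5% in C/D genes and 37.7% in H/ACA genes, against 39.6% in the other tested genes with a known sequence.

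Levels are given as TPM, a unit that scales the counted fragments of a gene by its length and by the total of the sample. Fragments could be recovered from TPM, and samples of the phosphomutant set had 17.0 to 18.3 M of them, those of the deletion set 18.1 to 18.9 M. The 81 rows took 8911 to 13118 of these fragments in a sample, or 0.0515% to 0.0744%. The sample labels name poly-A depletion of the RNA, while the published methods name poly-A purification. Mature snoRNAs carry no poly-A tail, and the tables do not separate mature snoRNAs from precursors or from the introns of host transcripts. A TPM of a member is therefore a level of fragments over its row, not of a known form of the RNA. In bulk cultures, a change in the number of cells with an RNA and a change in its amount per cell cannot be told apart. The deletions stood out in the data: YHP1 was at 0 to 0.0424 TPM in the strains that lack it against 30.8 to 37.2 in wild type, and YOX1 at 0.563 to 1.81 TPM against 85.9 to 108.

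Levels of the members spanned more than 2 orders of magnitude (the plot of levels by rank). The highest member was snR44, an H/ACA snoRNA inside an intron of the ribosomal protein gene RPS22B, at a mean of 257 TPM over the 24 samples. It was followed by the H/ACA members snR33 at 128.4 TPM, snR49 at 102 TPM and snR31 at 99.7 TPM, and by the C/D members snR54 at 96.4 TPM and snR4 at 77.5 TPM. snR4 guides the acetylation of ribosomal RNA, while the other 5 guide methylation or pseudouridylation. Only 3 members had a mean of 100 TPM or more, and 18 had a mean under 10 TPM. The means of C/D members had a median of 26.9 TPM among phosphomutant samples and 19.5 TPM among deletion samples. Those of H/ACA members had medians of 20.3 and 19.3 TPM. Across the 76 snoRNA genes, length and mean TPM had a Spearman correlation of -0.01, which describes genes and has no replicates behind it.

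**Figure D1:**
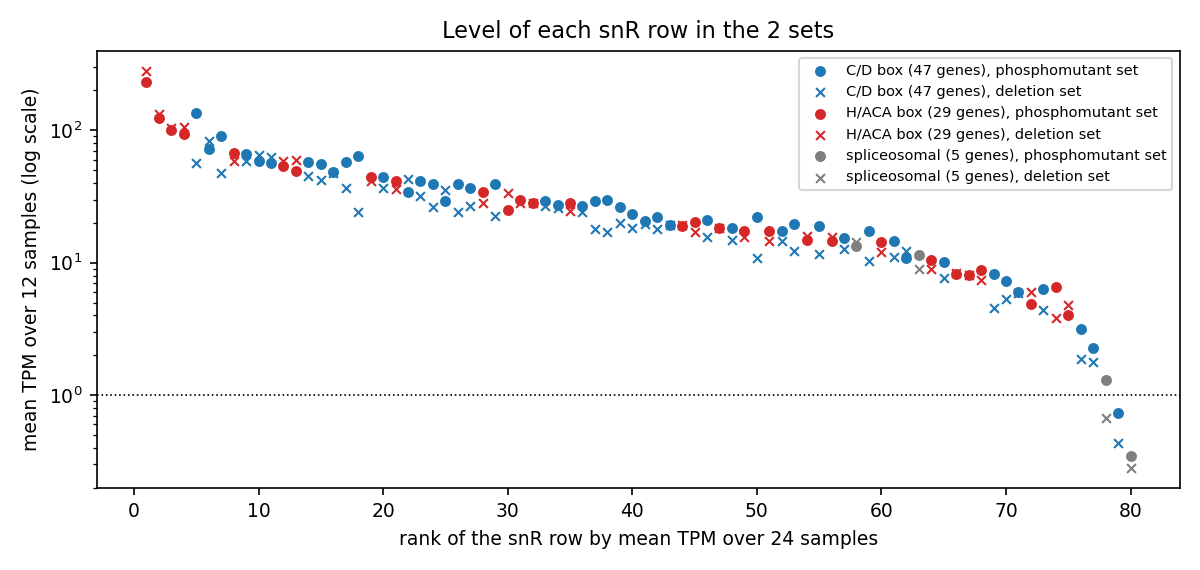
Mean TPM of each snR row over the 12 samples of a set (log scale) against its rank over all 24 samples, with class shown by colour and set by symbol, and a dotted line at 1 TPM. snR44 leads at 232 and 283 TPM, 4 rows have a mean under 1 TPM over the 24 samples, and snR7-S, at 0 in every sample, is not drawn.

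The RNAs known for cleavage of the ribosomal precursor were not among the highest rows. U3, which is encoded by the near copies snR17a and snR17b (81.1% identical over aligned positions), was at 5.35 TPM for snR17a and 25.4 TPM for snR17b. In the annotation snR17a shares exonic bases with IRC13 on its own strand, so that fragments there could be counted for neither or either gene, and both copies of U3 are uncertain for their similarity. snR30, an H/ACA RNA for 18S maturation, was at 29.1 TPM, U14 (snR128) at 20.8 TPM, and snR10 at 5.42 TPM. snR10 also overlaps another annotated exon on its strand, that of YGL088W. snR52, the snoRNA gene transcribed by RNA polymerase III, was at 6.26 TPM.

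The 4 lowest rows had a mean under 1 TPM. snR7-S was at 0 fragments in all 24 samples, which with a limit of 3 fragments per sample allows no fold change. It lies within the bases of snR7-L, whose 24 samples held 35 fragments in all, with 3 or fewer in 21 of them. snR73, a C/D guide, held 32 fragments in all and 3 or fewer in 22 samples. snR6 held 57 fragments and 3 or fewer in 19 samples. Of the spliceosomal rows, snR14 was at 13.9 TPM and snR19 at 10.3 TPM, and U2 (LSR1) lay between 4.19 and 9.54 TPM in the phosphomutant set and between 4.55 and 8.53 TPM in the deletion set. No spliceosomal row was called in any of the 12 comparisons made.

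By their SD, replicates of a strain differed more for C/D than for H/ACA members, and more in the phosphomutant set than in the deletion set. The replicate SD of log2(TPM + 1), pooled over the 4 strains of a set, had a median of 0.49 over the 46 tested C/D members of the phosphomutant set and of 0.33 over the 29 H/ACA members. It was 0.31 and 0.23 in the deletion set. The median over all tested genes was 0.24 and 0.18. Counting fragments alone would give a chi-squared of about 1 per degree of freedom, and its median was 6.73 for C/D and 5.61 for H/ACA members in the phosphomutant set. For the deletion set it was 2.54 for C/D and 3.71 for H/ACA members, the reverse of the order of the SDs. C/D members also had fewer fragments. Their median was 59.75 against 108.5 for H/ACA members in the phosphomutant set, and 46.25 against 103.5 in the deletion set. Longer snoRNA genes had smaller replicate SDs, with a Spearman correlation across 76 genes of -0.39 among the phosphomutant and -0.31 among the deletion samples.

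The summed level of C/D members set 6 libraries of the phosphomutant set apart (the plot of class sums). Wild type replicates 1, 2 and 3 had C/D sums of 2203, 1560 and 1364 TPM. In yhp1-13A the sums were 2335, 1186 and 1195 TPM. They were 1810, 1527 and 1237 TPM in yox1-9A and 1834, 1148 and 1104 TPM in yhp1-13A yox1-9A. Replicate 1 was highest in each strain, and replicates 2 of wild type and yox1-9A were also above every sum of the double mutant's replicates 2 and 3. H/ACA sums showed no such split and ran from 926 to 1267 TPM over all 12 samples. C/D sums of the deletion set ran from 1079 to 1291 TPM and H/ACA sums from 1110 to 1313 TPM.

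**Figure D2:**
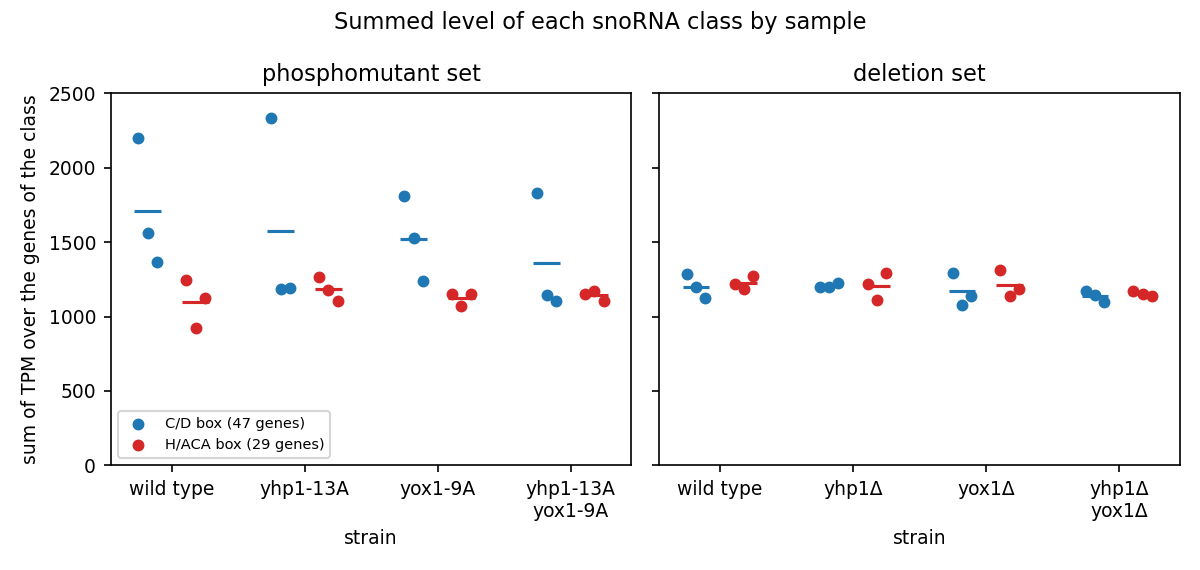
Sum of TPM over the 47 C/D (blue) and the 29 H/ACA (red) genes in each sample, by strain, with replicates 1 to 3 from left to right and bars at the mean of 3. In the phosphomutant set C/D sums run from 1104 to 2335 TPM and H/ACA sums from 926 to 1267 TPM, while in the deletion set both stay between 1079 and 1313 TPM.

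The 6 libraries were also set apart by genes outside the snR rows. The first component of the residuals over those genes held 63.8% of their variance, and put on 1 side replicate 1 of all 4 strains together with replicate 2 of wild type and of yox1-9A. In these 6 libraries CCW12, a cell wall protein gene that was the most abundant transcript of the other 6, was at 8279 to 11948 TPM, against 23640 to 26468 TPM there. The C/D sums were 1527 to 2335 TPM in the 6 and 1104 to 1364 TPM in the others, and the ratio of C/D to H/ACA sums was 1.42 to 1.84 against 0.979 to 1.21. The slope of log2 level, relative to the mean of the 12 samples, on the GC content of other genes was -0.28 to -0.05 per 10 percentage points in the 6 libraries and 0.12 to 0.28 in the others. The part of these differences in the C/D levels was not tested. Over C/D members GC content and the log2 ratio of the 6 libraries to the others had a Spearman correlation of 0.08 (46 genes), and over H/ACA members of -0.51 (29 genes). The split runs through every strain, and its part in the comparisons between strains was examined only by the side of the component as a term in the fit and by values within each side.

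Single C/D members differed widely within strains (the plot of 4 genes by sample). snR54, a guide inside an intron of the guanine nucleotide synthesis gene IMD4, was at 237, 180 and 76.1 TPM in wild type. It was at 272, 67.4 and 66.0 TPM in yhp1-13A, at 217, 146 and 62.3 TPM in yox1-9A and at 200.003, 59.8 and 50.5 TPM in yhp1-13A yox1-9A. Across the deletion set it lay between 39.9 and 73.6 TPM, so that 7 libraries of the phosphomutant set, the 6 above and wild type replicate 3, were above every library of the deletion set. snR78 had the largest replicate SD, 1.53, and ran from 2.74 TPM (5 fragments) to 48.1 TPM (88 fragments), a range of 17.6-fold. snR54 had the second largest, 1.01. Among deletion strains snR53 (0.60) and snR13 (0.59) had the largest, and snR53 had at most 12 fragments in any of the 24 samples.

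snR24, a guide inside an intron of ASC1, followed the same pattern as snR54, at 117, 103 and 37.9 TPM in wild type and 113.9, 37.2 and 35.1 TPM in yhp1-13A. In total, 15 of 46 tested C/D members lay higher in each of the 6 libraries than in all of the other 6, against 3 of 29 H/ACA members and 28.5% of all tested genes, so that the share of C/D members was near that of all genes. The size of the split differed more: the median log2 ratio was 0.51 over C/D members, 0.04 over H/ACA members and 0.22 over all tested genes. In contrast, the smallest replicate SDs in the phosphomutant set were those of snR84 (0.11), an H/ACA guide, and snR63 (0.15), a C/D guide. snR84 ran from 24.3 to 32.0 TPM and snR63 from 47 to 74.0 TPM over the 12 samples. Among deletion strains snR11 (0.06) and snR84 (0.09) had the smallest. snR44 stayed between 172 and 265 TPM in the phosphomutant set and between 249 and 324 TPM in the deletion set.

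**Figure D3:**
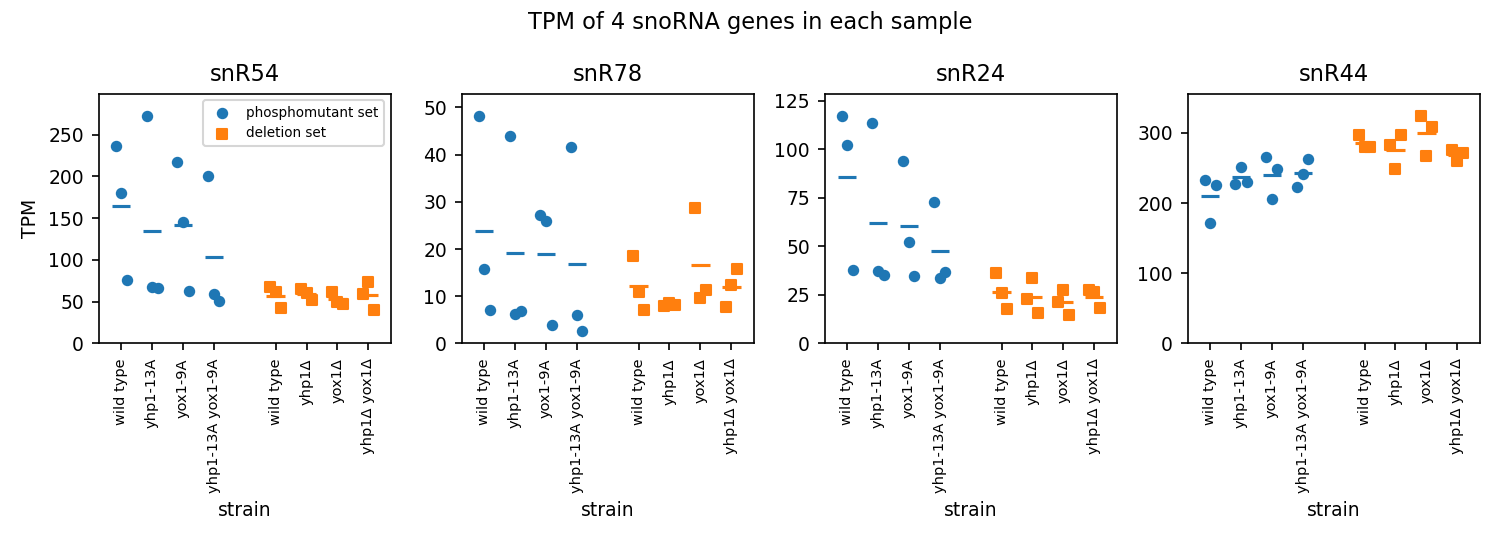
TPM of snR54, snR78, snR24 and snR44 in each sample by strain, with replicates 1 to 3 from left to right and bars at the mean of 3. The first 3, C/D members, range widely within strains of the phosphomutant set (snR54 from 50.5 to 272 TPM), while snR44, an H/ACA member, stays between 172 and 324 TPM over all 24 samples.

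The same wild type strain thus gave different C/D levels in the 2 sets. Replicates 1 and 2 of the phosphomutant set's wild type are among the 6 libraries with low CCW12. Replicate 3 had a C/D sum of 1364 TPM, against 1126 to 1285 TPM in the deletion set's wild type. Over 47 C/D genes the median log2 ratio of the phosphomutant set's wild type mean to that of the deletion set was 0.42, with 41 genes higher, and over 29 H/ACA genes it was 0.00, with 15 higher. The order of members was alike, with a Spearman correlation between the wild type means of 0.92 over C/D and 0.98 over H/ACA genes. The 2 tables were normalized apart and these ratios were not tested.

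The 8 members inside introns were compared with their host transcripts, whose rows count exons. The sum over the 8 ran from 470 to 954 TPM in the phosphomutant set and from 440 to 581 TPM in the deletion set. Within the phosphomutant set it was 636 to 954 TPM in the 6 libraries with low CCW12 and 470 to 550 TPM in the other 6. snR44 stood at 26.2% of RPS22B among phosphomutant samples and 33.1% among deletion samples, as the mean over samples of the ratio of TPM; the next pairs of values follow this order. snR54 stood at 28.1% of IMD4 (10.4% to 51.7%) and 11.3% (8.32% to 15.9%), while IMD4 itself ran only from 428 to 564 and from 421 to 567 TPM. snR59 stood at 12.6% and 8.50% of the ribosomal protein gene RPL7B, and snR39 at 1.84% and 1.5% of its paralog RPL7A. snR39 and snR59 are 74.2% identical over aligned positions. snR191 stood at 4.50% and 4.37% of NOG2, a ribosome assembly gene. snR18 stood at 3.06% and 1.6% of the translation elongation factor gene EFB1, snR38 at 2.37% and 1.23% of TEF4, another elongation factor gene, and snR24 at 2.99% and 1.11% of ASC1. The 6 intronic C/D members were each at a smaller mean share of their host in the deletion set. The phosphomutant means include the 6 libraries with low CCW12, whose part in this difference was not tested. No host gene and no intronic member was called in any of the 12 comparisons.

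Members cut from a shared precursor differed widely in level. On chromosome XIII, the genes snR78, snR77, snR76, snR75, snR74, snR73 and snR72 lie in this order along the plus strand, from 297278 to 298651. In the phosphomutant set their means were 19.6, 39.4, 57.7, 10.9, 5.97, 0.736 and 17.4 TPM. The means of the deletion set were 12.2, 24.3, 36.4, 12.2, 5.87, 0.434 and 10.4 TPM. snR76 was the highest and snR73 the lowest in both. For the minus strand cluster of chromosome XVI, the means were 56.6 TPM for snR41, 34.1 for snR70 and 29.1 for snR51 in the phosphomutant set, and 62.8, 42.8 and 35.2 TPM in the deletion set. snR57, snR55 and snR61 on chromosome XII had means of 66.4, 21.1 and 18.3 TPM and of 58.6, 15.7 and 15.0 TPM. snR190 stood at 8.15 and 4.57 TPM beside 23.2 and 18.4 TPM for snR128, which it precedes. snR67 stood at 48.5 and 47.2 TPM, while snR53, which follows it, stood at 2.25 and 1.77 TPM.

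Comparisons of strains used limma on log2(TPM + 1) over all genes with a mean of at least 1 TPM in a set. Of the 81 members, 78 of 6316 tested genes in the phosphomutant set and 77 of 6311 in the deletion set passed this filter. Calls are two-sided, at a p below 0.1 after Benjamini-Hochberg adjustment over all tested genes. snR7-S, snR7-L and snR73 did not pass in either set, and snR6 did not pass in the deletion set.

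No member was called in the phosphomutant set. Against wild type, 0 of 78 members were higher and 0 lower in yhp1-13A, where limma called 0% of all tested genes in either direction. In yox1-9A the counts were 0 and 0, beside 0.174% of all tested genes called higher and 0.111% lower. They were 0 and 0 in yhp1-13A yox1-9A, beside 0% higher and 0.0158% lower. At an unadjusted p below 0.05, 1 member was higher in yhp1-13A (0.174% of all genes), which was snR60, and none was lower (0.887%). No member reached that p in yox1-9A, beside 0.871% of all genes higher and 2.94% lower, or in yhp1-13A yox1-9A, beside 0.427% higher and 2.22% lower. snR60 held 3 to 13 fragments per sample of this set and overlaps the annotated exon of YJL047C-A on its strand. Between the double mutant and the single mutants, 0 members were called against yhp1-13A (0% of all genes in each direction) and 0 against yox1-9A (0.127% higher and 0.222% lower). At an unadjusted p below 0.05, none was found against yhp1-13A, beside 0.364% of all genes higher and 0.396% lower. Against yox1-9A, 0 were higher (2.68%) and 2 lower (1.49%), snR36 and snR6, and none lay apart in all samples (4.5% higher and 2.53% lower). snR6 held 1 to 7 fragments per sample of this set. The interaction of both mutations gave 0 calls, beside 0.0158% of all genes in each direction, and 0 at an unadjusted p below 0.05 (1.33% higher and 0.412% lower).

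Against yhp1-13A, 6 members lay lower in every sample of the double mutant (1.22% of all genes did) and 0 higher (0.807%). They were snR17a, snR30, snR10, snR35, snR37 and snR189. snR17a was at 4.94 ± 0.9996 TPM against 8.66 ± 3.00 (SD, n = 3), snR30 at 24.1 ± 1.59 against 27.7 ± 2.46 TPM and snR10 at 4.55 ± 0.233 against 5.66 ± 0.966 TPM. The other members named for cleavage of the ribosomal precursor overlapped, the U3 gene snR17b at 21.6 ± 3.50 against 29.8 ± 11.4 TPM and U14 (snR128) at 20.2 ± 4.91 against 25.7 ± 10.04 TPM. The lowest unadjusted p of the 6 was 0.11 (limma), and their log2 differences ran from -0.67 to -0.19 beside a median of -0.01 over all tested genes.

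The median change of C/D members was below that of H/ACA members in each phosphomutant strain (the plot of changes). The C/D median on the log2 scale was -0.16 for yhp1-13A, -0.18 for yox1-9A and -0.27 for the double mutant, against 0.10, 0.00 and 0.03 over H/ACA members and -0.11, -0.08 and -0.12 over all tested genes. With median-of-ratios scaling, which brought the median of all genes to 0.00, 0.01 and 0.00, the C/D medians were -0.05, -0.09 and -0.15 and the H/ACA medians 0.22, 0.10 and 0.15. Over all members the medians of -0.04, -0.09 and -0.11 then changed sign, to 0.08, 0.01 and 0.01, and the split of all tested members in yhp1-13A yox1-9A went from 24 higher and 54 lower to 41 higher and 37 lower. No such median was tested. The 3 strains share their wild type samples, 2 of which are among the 6 libraries with high C/D sums, while yhp1-13A and yhp1-13A yox1-9A have 1 such library each. Within the 6 libraries with low CCW12, the median over all members was 0.29 for yhp1-13A, -0.04 for yox1-9A and 0.06 for the double mutant. Within the others it was -0.11, -0.07 and -0.18. The signs in yhp1-13A and in the double mutant thus differed between the sides, each of which has 1 or 2 samples of a strain.

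The members with the largest changes among those with no overlap between mutant and wild type samples had these values. In yhp1-13A, 2 members lay above wild type in every sample (0.538% of all genes did), and none below (2.82%). snR82 was at 58.8 ± 4.16 TPM against 47.2 ± 7.36 (SD, n = 3), and snR85, both H/ACA guides, at 17.5 ± 3.70 against 13.0 ± 1.55 TPM. In yox1-9A 2 lay below (5.81%) and none above (1.74%). snR51 was at 25.7 ± 2.26 against 32.1 ± 0.979 TPM and snR62 at 16.4 ± 1.75 against 22.3 ± 2.72 TPM (SD, n = 3). In yhp1-13A yox1-9A 2 lay below (3.42%) and none above (1.09%). The U3 gene snR17b was at 21.6 ± 3.50 against 33.6 ± 12.4 TPM and snR61 at 13.6 ± 2.71 against 20.6 ± 2.82 TPM. Adjusted p-values of these 6 differences ran from 0.83 to 0.999 by limma. The largest difference of any member from wild type, -1.23 on the log2 scale for snR53 in yox1-9A, came from samples with 12 fragments or fewer and overlapped with wild type.

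Against wild type, no member was called in the deletion strains either. In yhp1Δ, 0 of 77 members were higher (0.0317% of all tested genes) and 0 lower (0.0951%). For yox1Δ, 0 were higher (0.301%) and 0 lower (0.0634%), and with both deletions 0 were higher (0.444%) and 0 lower (0.19%). At an unadjusted p below 0.05, 2 members were higher in yhp1Δ (0.57% of all genes) and 0 lower (0.634%). With YOX1 deleted 1 was higher (2.58%) and 3 were lower (1.44%), and with both deleted 1 was higher (2.17%) and 3 were lower (1.54%). The median log2 fold change over members was 0.02 for yhp1Δ, -0.03 for yox1Δ and -0.08 for the double deletion, against 0.01, -0.04 and 0.03 over all tested genes. Of the 75 tested snoRNA genes, 54 were lower and 21 higher in the double deletion than in wild type, beside 2753 lower and 3558 higher of all tested genes.

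**Figure D4:**
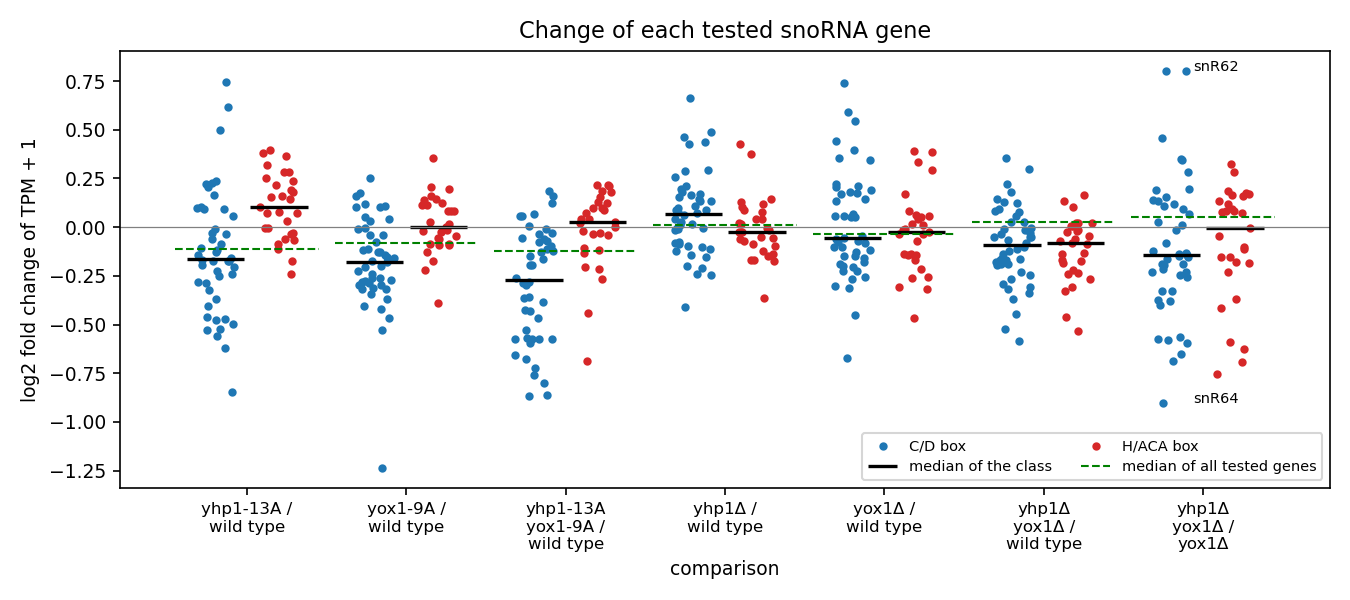
Log2 fold change of TPM + 1 of each tested C/D (blue) and H/ACA (red) gene in the 6 comparisons of a mutant with its wild type and in yhp1Δ yox1Δ against yox1Δ, with black bars at the median of each class and dashed lines at the median of all tested genes. Only snR62 (0.80) and snR64 (-0.90), in the last comparison, were called and are named, and the C/D median in yhp1-13A yox1-9A is -0.27 against -0.12 over all genes.

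In yhp1Δ, 3 members lay above wild type in every sample (1.68% of all genes) and 3 below (1.36%). The largest were snR64, described in the next paragraphs, and snR48, a methylation guide at 16.4 ± 5.02 against 11.1 ± 1.03 TPM. The lowest were snR39B at 42.3 ± 4.93 against 50.1 ± 2.47 TPM and snR36 at 14.7 ± 0.283 against 16.7 ± 1.53 TPM (SD, n = 3). In yox1Δ 2 lay above (3.15%), snR64 and snR161 (11.1 ± 1.6 against 8.21 ± 0.341 TPM), and 3 below (2.69%), among them snR62 and snR84 (26.4 ± 2.59 against 29.7 ± 1.20 TPM). In yhp1Δ yox1Δ 2 lay above (4.8%), snR62 and snR11 (44.8 ± 0.841 against 40.7 ± 1.58 TPM). Of the 6 that lay below (4.41%), the largest differences were those of the H/ACA guide snR85 (8.62 ± 1.78 against 13.0 ± 2.88 TPM) and of snR55 (12.9 ± 0.447 against 18.1 ± 2.49 TPM). The adjusted p-values of these ran from 0.22 to 0.9999 by limma.

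Between the deletion strains, 2 C/D members were called. Against yox1Δ, snR62 was higher and snR64 lower in yhp1Δ yox1Δ, as 1 of 77 members each, beside 0.222% of all tested genes called higher and 0.349% lower. The count of 2 was 7 with the side of the first residual component in the fit. It was 1 with limma-voom, without the filter on low values or at an adjusted p below 0.05. It was also 1 without yhp1Δ replicate 1, any yox1Δ replicate, or yhp1Δ yox1Δ replicate 1 or 3. In this set the component held 44.4% of the residual variance over genes outside the snR rows. On it the yhp1Δ yox1Δ samples stood at 0.006, -0.040 and 0.034, near the border of the sides. The sides were taken from the same samples that the fit then used. At an unadjusted p below 0.05 there were 4 higher members (8.67% of all genes) and 8 lower ones (4.39%), and 5 members lay above yox1Δ in every sample (18.3%) and 10 below (8.3%). The median over members was -0.11 against 0.05 over all tested genes. snR75, with the same log2 difference as snR62 to 2 decimals (0.80), overlapped between the strains and was not called (limma adjusted p = 0.37). Against yhp1Δ, 0 members were called higher (0.412%) and 0 lower (0.127%), and at an unadjusted p below 0.05 there were 2 higher (2.55%) and 6 lower ones (2.36%).

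snR62 guides methylation of ribosomal RNA, and its gene has the lowest GC content of the C/D class, 23.0%. It was at 27.5, 21.8 and 24.5 TPM in yhp1Δ yox1Δ and at 13.8, 12.7 and 14.5 TPM in yox1Δ. Wild type stood between them, at 21.2, 18.4 and 17.5 TPM, and yhp1Δ was at 21.9, 18.4 and 17.9 TPM. The log2 difference between yhp1Δ yox1Δ and yox1Δ was 0.80 ± 0.12 (SE, limma, adjusted p = 0.011), and the groups did not overlap. Against wild type, yox1Δ differed by -0.45 ± 0.12 (adjusted p = 0.36) and yhp1Δ yox1Δ by 0.35 ± 0.12 (adjusted p = 0.87), so that neither was called. These levels rest on 27 to 61 fragments per sample. In the phosphomutant set snR62 was lower than wild type in yox1-9A, at 17.3, 14.4 and 17.6 TPM against 22.4, 19.6 and 25.0 TPM, without a call (-0.42 ± 0.21, adjusted p = 0.999).

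snR64 guides methylation of 25S ribosomal RNA. Both single deletions had more of it than wild type and the double deletion. It was at 9.12, 8.40 and 6.94 TPM in wild type, 13.1, 11.2 and 16.4 TPM in yhp1Δ, 13.2, 13.0 and 16.6 TPM in yox1Δ and 6.25, 9.27 and 6.18 TPM in yhp1Δ yox1Δ. The samples of each single deletion lay above all samples of both other groups. The log2 differences from wild type were 0.66 ± 0.18 in yhp1Δ (adjusted p = 0.9999) and 0.74 ± 0.18 in yox1Δ (adjusted p = 0.22), and neither was called. In yhp1Δ yox1Δ it was -0.17 ± 0.18 (adjusted p = 0.98). yhp1Δ yox1Δ differed from yox1Δ by -0.90 ± 0.18 (adjusted p = 0.062), which was called, and from yhp1Δ by -0.83 ± 0.18 (adjusted p = 0.11), which was not. The interaction, by which the double deletion departs from the sum of the single ones, was -1.57 ± 0.25 (adjusted p = 0.026, limma), 1 call among the 77 members beside 0.127% of all genes called in this direction and 0.0634% in the other. At an unadjusted p below 0.05, 2 members had a positive interaction (3.25% of all genes) and 6 a negative one (3.26%). These levels of snR64 rest on 14 to 37 fragments per sample. Without yhp1Δ yox1Δ replicate 1 the adjusted p was 0.32 for the difference from yox1Δ and 0.12 for the interaction, and further libraries whose removal ended these calls are given in the closing section.

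The levels of snR64 in the phosphomutant set were higher and overlapped between all strains, at 44.3, 19.0 and 20.02 TPM in wild type, 25.4, 9.87 and 21.2 TPM in yhp1-13A, 35.2, 23.3 and 13.2 TPM in yox1-9A and 23.9, 10.4 and 19.4 TPM in yhp1-13A yox1-9A. The interaction there was 0.15 ± 0.64 (limma) and was not called. Wild type was at 27.8 ± 14.3 TPM in this set against 8.15 ± 1.11 TPM in the deletion set (SD, n = 3 each), although the strain was the same.

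**Figure D5:**
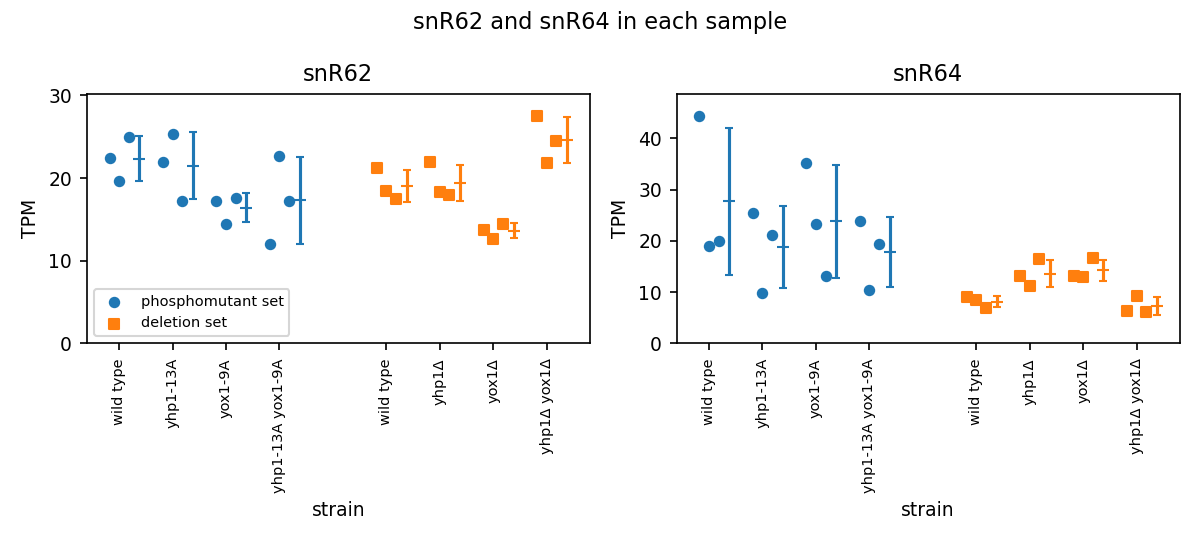
TPM of snR62 and snR64 in each sample of the 8 groups, with replicates 1 to 3 from left to right and the mean ± SD of 3 beside the points. In the deletion set snR62 stands at 12.7 to 14.5 TPM in yox1Δ and 21.8 to 27.5 TPM in yhp1Δ yox1Δ, and snR64 at 11.2 to 16.6 TPM in the single deletions and 6.18 to 9.27 TPM in wild type and the double deletion.

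The genes beside the 2 called members were looked up after their values had been seen, and none was called in these comparisons. snR62 lies on the minus strand, with 104 bases between it and the plus strand gene CUE5. CUE5 was at 52.8 ± 2.82 TPM in yhp1Δ yox1Δ and 44.3 ± 5.41 TPM in yox1Δ (SD, n = 3). The log2 difference was 0.25 (limma adjusted p = 0.41). Its samples in yhp1Δ yox1Δ all lay above those in yox1Δ, as did those of 18.3% of all tested genes. WHI2, on the other side, was at 126 TPM in both. snR64 lies on the plus strand, 251 bases before UBA1, which was at 124 ± 3.04 TPM in yhp1Δ yox1Δ and 139 ± 21.9 TPM in yox1Δ (-0.15, adjusted p = 0.63). The interaction of UBA1 was -0.31 (adjusted p = 0.65). TRP3, on the minus strand on the other side, was at 76.1 ± 0.899 and 77.7 ± 5.16 TPM. Whether the counting used the strand of reads is not stated, so the part of reads from neighbouring transcripts was not tested.

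Genes for the proteins of the particles were not called in any of the 12 comparisons. This held for the 4 core C/D proteins (NOP1, NOP56, NOP58 and SNU13), the 4 core H/ACA proteins (CBF5, GAR1, NHP2 and NOP10), the U3 protein gene RRP9, 9 assembly factors and 13 genes of transcription termination, processing and decay of snoRNAs. In yhp1Δ yox1Δ against wild type, the medians were -0.02 over the C/D and 0.11 over the H/ACA proteins, 0.08 over the assembly factors and 0.03 over the termination and processing genes, beside 0.03 over all genes. In yhp1-13A yox1-9A they were -0.04, -0.14, -0.16 and -0.20, beside -0.12 over all genes. The largest differences there were -0.13 for NOP56, -0.30 for NOP10, -0.59 for the assembly factor HIT1 and -0.40 for PAP2, a subunit of a nuclear poly-A polymerase complex. RRP9 differed by -0.35. In yhp1Δ yox1Δ they were -0.17 for NOP1, 0.20 for NHP2, 0.30 for RVB1, an ATPase of the assembly machinery, and -0.27 for NRD1, which terminates snoRNA transcription. RRP9 differed by 0.08 there. Among the single mutants, the largest in these lists was -0.47 for HIT1 in yhp1-13A.

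Other stable non-coding RNAs were set beside the members in the same unit. Their TPM are also levels of fragments over a row, and give no scale of the amount of RNA in a cell. The RNA of the signal recognition particle, SCR1, ran from 1.88 to 30.8 TPM in the phosphomutant set and from 3.79 to 13.5 TPM in the deletion set. The RNA of RNase P (RPR1) ran from 1.93 to 9.13 and from 2.78 to 5.86 TPM, and that of RNase MRP (NME1), which cuts the ribosomal precursor, from 4.66 to 13.0 and from 5.90 to 10.4 TPM. The telomerase RNA TLC1 ran from 99.0 to 147 TPM and from 103 to 137 TPM, and among all members snR44 and snR33 were above it in mean level in both sets. None of the 5 genes of this list, LSR1 included, was called, and the largest difference from wild type was 0.68 for SCR1 in yhp1-13A, whose samples overlapped with wild type.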

How the data were processed

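RNA was sequenced from 24 cultures, 3 per strain and set, and no sample was left out. The authors aligned paired-end reads to R64-1-1 with STAR 2.5.3a, counted exonic fragments of mapping quality over 20 with featureCounts 1.5.2 and an Ensembl annotation, and deposited TPM values per gene and sample. The step to TPM and the use of strand are not given in the sources used here. Multi-copy and overlapping rows are uncertain for this counting. TPM times gene length was a whole number of fragments for 100% of values (tolerance 0.02). limma 3.58.1 in R 4.3.3 was run on log2(TPM + 1), keeping genes that averaged at least 1 TPM in a set, with 4 groups in 1 fit, a trend and no covariates. Calls were made at an adjusted p below 0.1, the study's threshold.

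The p-values measure the spread between 3 biological replicates. The members and lists were chosen with earlier results of these data known. Named members are the 6 highest and 3 lowest, those with processing roles, polymerase III or introns, spliceosomal rows, all called members, for each mutant the 2 largest rises and falls whose samples do not overlap, the 2 largest and smallest replicate SDs, and the largest change in each protein list. Others were named after their values were seen. Positions, sequences and classes came from RefSeq R64, whose lengths equal those of the files for 79 of 81 rows. The fit was tested on simulated data. Alternatives were a pseudocount of 0.1, no filter, a mean of at least 10 TPM, median-of-ratios scaling, a replicate block, a fit of the 2 groups alone, untrended or robust eBayes, an adjusted p below 0.05, limma-voom on recovered fragments, a term for the side of the first residual component, and each sample left out in turn. Same-numbered samples deviated together in all 3 pairs, over all tested genes, for wild type with yox1-9A (r from 0.52 to 0.83), yhp1-13A with yox1-9A (0.12 to 0.65), yhp1-13A with yhp1-13A yox1-9A (0.43 to 0.72) and wild type with yhp1Δ (0.48 to 0.75). A replicate block changed no count of called members there. Python 3.11.15 with pandas 2.3.3, Biopython 1.88 and matplotlib 3.10.9 was used for levels, alignments and plots.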

Additional observations from a re-analysis of the deposited data

Results flagged for a closer look

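The difference of snR64 between strains with and without a deletion changed with the state of the other gene. These strains also differ in tags and markers, and yhp1Δ in carrying lys2Δ0 and not met15Δ0. The effect of the deletions cannot be told apart from that of these differences. YHP1 deletion went with a log2 difference of 0.66 in cells with YOX1 and of -0.90 in cells without it, and the interaction was -1.57 ± 0.25 (SE, limma, adjusted p = 0.026). The 3 samples of each single deletion (11.2 to 16.6 TPM) all lay above the 6 samples of wild type and the double deletion (6.18 to 9.27 TPM). The adjusted p ran from 0.010 to 0.20 over 22 alternatives, of which 17 kept the call. Its levels rest on 14 to 37 fragments per sample.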

How the results depend on the processing

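No called result changed direction under an alternative, while medians over the members of the phosphomutant strains did so with median-of-ratios scaling, as given above. Calls in the phosphomutant set stayed at 0 except for 1 member in yox1-9A against wild type with the side of the first residual component in the fit, and 1 member in yhp1-13A yox1-9A against yox1-9A with a replicate block, where numbers do not pair the samples (r from -0.22 to 0.54). A replicate block changed no other count of called members, and with it snR62 (adjusted p = 0.0050) and snR64 (adjusted p = 0.072) were both still called between yhp1Δ yox1Δ and yox1Δ. In the deletion set, median-of-ratios scaling gave 1 member in yox1Δ against wild type (snR64) and 1 in yhp1Δ yox1Δ against yhp1Δ, where the side of the component gave 2. For yhp1Δ yox1Δ against yox1Δ, the 2 calls became 1 without the filter, at an adjusted p below 0.05 and with limma-voom, and 7 with the side of the component. limma-voom gave 0 members for the interaction. Leaving out 1 sample gave 1 to 2 members for yhp1Δ yox1Δ against yox1Δ, 0 to 1 for yhp1Δ yox1Δ against yhp1Δ, where 1 member was called without wild type replicate 1, yhp1Δ replicate 2 or yhp1Δ yox1Δ replicate 2, and 0 to 1 for the interaction. The cause of these shifts was not tested.

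The call of snR62 held in 23 of 23 alternatives, at 0.72 to 0.88 and adjusted p-values from 0.0050 to 0.091. The call of snR64 between yhp1Δ yox1Δ and yox1Δ held in 14 of 23, at -1.07 to -0.80 and adjusted p-values from 0.021 to 0.32. It was lost without yhp1Δ replicate 1 (adjusted p = 0.11), yox1Δ replicate 1 (0.13), 2 (0.14) or 3 (0.26), and yhp1Δ yox1Δ replicate 1 (0.32) or 3 (0.29). The interaction of snR64 was lost without wild type replicate 3 (0.11), yox1Δ replicate 3 (0.10) and yhp1Δ yox1Δ replicate 1 (0.12) or 3 (0.11), and held without any other sample. The median member had 68.3 fragments per phosphomutant sample and 58.0 per deletion sample. The median chi-squared per degree of freedom over members, 6.55 and 2.65, was above what counting alone would give. For the called members it was below 1 in the deletion set, at 0.46 for snR62 and 0.73 for snR64. In that set their replicates thus differed by no more than counting would give, but a call favours rows with a small replicate spread. In the phosphomutant set the values were 1.86 for snR62 and 9.50 for snR64. The part of depth in the calls was not tested.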
